A study of Mus musculus with 9 samples.

Results

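The 10 genes described here encode cytosolic DNA sensors and the STING pathway: Cgas, Sting1, Tbk1, Ikbke, Zbp1, Ifi203, Ifi204, Mndal, Ddx41 and Enpp1. They were taken by symbol from a table of 57126 genes, and all 10 were found and passed the filter on low counts that left 17555 genes. RNA was sequenced from mouse plasmacytoid dendritic cells (pDCs), a rare dendritic cell type that makes large amounts of type I interferon, after flow cytometry sorting. The cells had been treated with oxidized mitochondrial DNA (Ox-mtDNA), with mitochondrial DNA (mtDNA) or with PBS, the vehicle, and each group had 3 libraries, numbered as replicates 1, 2 and 3. Strain, age, dose, time and the way the DNA was given are not stated in the labels, nor whether replicates were separate animals or cultures, and p-values therefore cover only the spread among these 9 libraries. The labels name no genetic change.

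DNA outside the nucleus and mitochondria is bound by cGAS, which makes the cyclic dinucleotide cGAMP. cGAMP binds STING on the endoplasmic reticulum, and STING recruits TBK1 and its relative IKKε, which phosphorylate IRF3 and so switch on interferon-β. Proteins of the p200 family and the helicase DDX41 have been reported to bind DNA upstream of STING. pDCs are best known for sensing nucleic acids in endosomes through TLR7 and TLR9, and they express the cytosolic pathway as well.

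Total counts per library were 16029951 to 25378884. In the edgeR quasi-likelihood test with Benjamini-Hochberg adjustment, 0 genes passed the threshold of 0.05 in each of the 3 comparisons, and an unadjusted p was under 0.05 for 9.81% of genes in Ox-mtDNA against PBS, 2.62% in mtDNA against PBS and 2.4% in Ox-mtDNA against mtDNA. DESeq2 called 370, 14 and 1 genes in the same 3 comparisons, and none of them was among the 10 genes. Replicate 3 of every group was separated from replicates 1 and 2 by the first principal component, which held 70.7% of the variance. Xist, transcribed from the inactive X, reached 2090 CPM in replicate 3 of Ox-mtDNA, 1930 in that of mtDNA and 818 in that of PBS, and at most 0.846 CPM elsewhere. For Zbp1, Ifi204, Ifi209 and Irf7, mtDNA replicate 3 lay within or below the range of the Ox-mtDNA libraries and far below mtDNA replicates 1 and 2. The labels do not tell whether libraries were exchanged, which was not tested. Log2 fold changes of Ox-mtDNA against mtDNA are therefore also given without mtDNA replicate 3 for Zbp1, Ifi203, Ifi204 and Mndal. The p200 family and interferon output lists have their medians without it, and their other genes have no such value here. The 12 pDC markers summed to 4840 CPM in Ox-mtDNA replicate 2 and to 7190 to 12600 CPM elsewhere, and Siglech, a surface receptor of mouse pDCs, was at 1190 to 2440 CPM. Single markers did not all follow the sum. In Ox-mtDNA replicates 1, 2 and 3, Tlr9 was at 50.6, 198 and 21 CPM and Spib at 548, 541 and 463 CPM. PBS replicate 3 had the least Irf8, Runx2 and Tlr9 of all libraries, 389, 189 and 11.6 CPM, but the most Siglech. The 10 monocyte and macrophage markers, of which 8 were tested, summed to 684 to 2270 CPM, with the highest sum in PBS replicate 3. The 9 B cell and plasma cell markers, some of which pDCs also express, summed to 2020 to 3490 CPM, and the 6 erythroid markers to at most 0.641 CPM.

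Among the 10 genes, the Ox-mtDNA libraries had less Ifi203, Mndal, Zbp1 and Ifi204 than the mtDNA libraries of replicates 1 and 2. In replicate 3 the differences of these genes were -0.02, -0.06, 0.09 and 0.38 log2 units. Cgas was higher and Sting1 lower on average after either DNA than after PBS. None of these differences passed the threshold by edgeR or DESeq2 after adjustment over all tested genes. Cgas passed in mtDNA against PBS with limma-voom, sample quality weights and the replicate number as a block (adjusted p = 0.0397). For Tbk1 and Ddx41 the Ox-mtDNA libraries alone spanned the values of all others, and Ifi204 spanned a 163-fold range over the 9 libraries. In bulk RNA of sorted cells, fewer cells of a type and less RNA per cell cannot be told apart.

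Per kilobase of counted exon, the mean level over the 9 libraries was 120 CPM per kb for Mndal, 81.1 for Sting1, 52.8 for Ifi203, 36.2 for Ddx41 and 32.5 for Tbk1. The levels of the other genes were 12.2 CPM per kb for Ifi204, 5.46 for Cgas, 5.43 for Zbp1, 4.93 for Ikbke and 0.789 for Enpp1. The adaptor STING and the kinase TBK1 were thus measured at higher transcript levels than the enzyme cGAS in every library. The ranges over the libraries overlapped between neighbours in this order, so their order is not settled, except that every library had less Enpp1 than the lowest library had Ikbke.

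**Figure D1:**
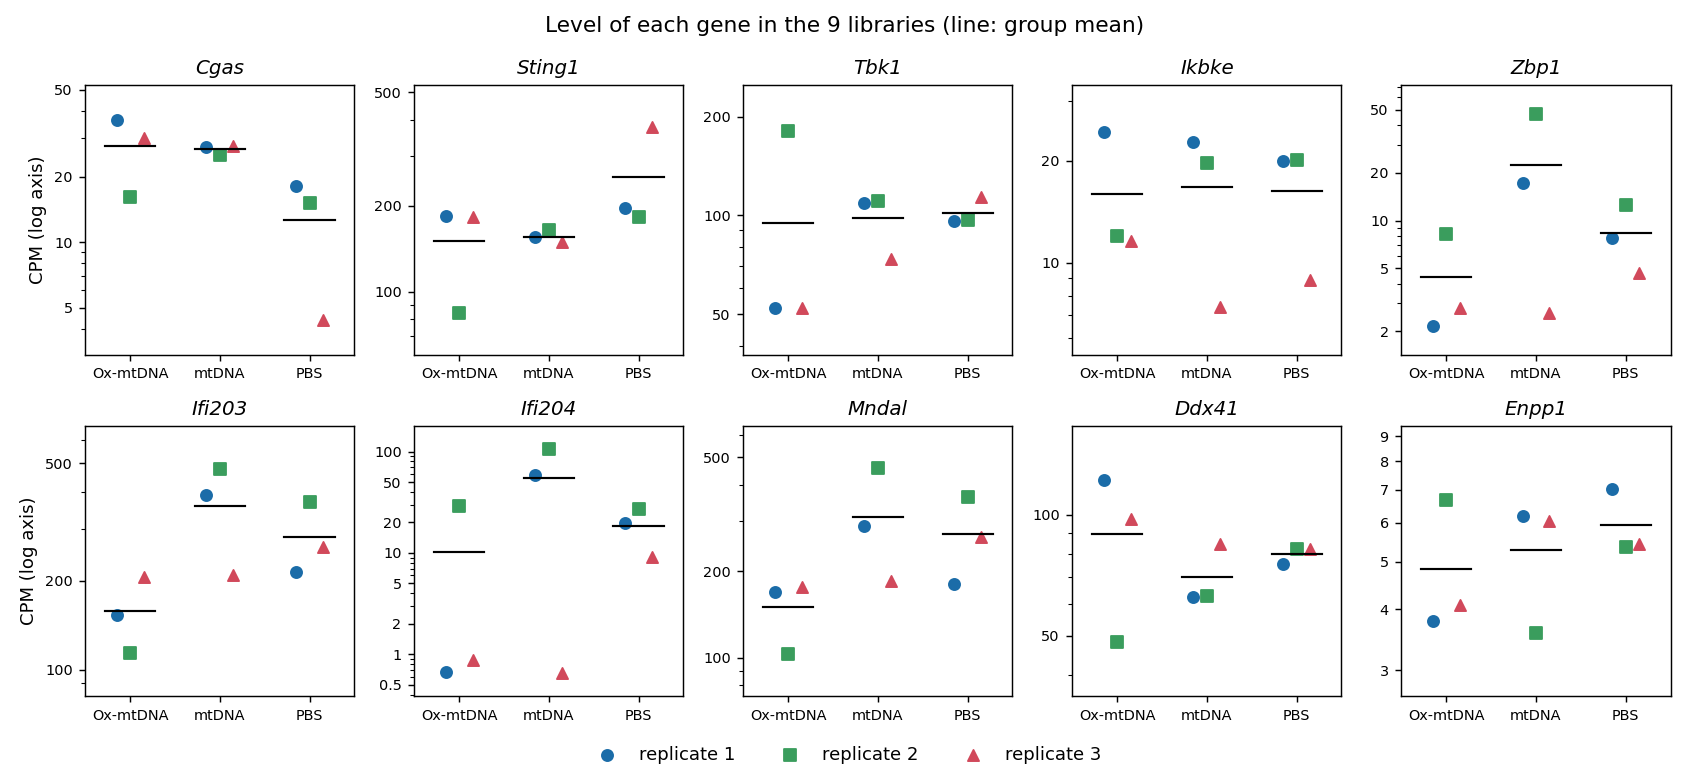
CPM of each of the 10 genes (log axis, a scale per gene) in the libraries of Ox-mtDNA, mtDNA and PBS, with a marker per replicate number and a line at the group mean. Cgas was at most 18.2 CPM in every PBS library, and Ifi204 was below 1 CPM in Ox-mtDNA replicates 1 and 3 and in mtDNA replicate 3.

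The promoters of Ifi203 and Mndal are shown because these genes of one cluster on chromosome 1 had nearly parallel levels in the 9 libraries. Both sequences are the 150 bases before a RefSeq transcript start on the reverse strand of GRCm38.p6, at chr1:173942493-173942642 for Ifi203 and chr1:173880188-173880337 for Mndal. Capitals mark the core of the interferon-stimulated response element (ISRE), a motif of interferon-induced genes, searched as GAAANNGAAA on both strands.
Ifi203: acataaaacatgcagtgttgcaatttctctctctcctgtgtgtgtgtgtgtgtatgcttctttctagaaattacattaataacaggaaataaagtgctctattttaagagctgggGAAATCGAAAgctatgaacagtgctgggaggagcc
Mndal: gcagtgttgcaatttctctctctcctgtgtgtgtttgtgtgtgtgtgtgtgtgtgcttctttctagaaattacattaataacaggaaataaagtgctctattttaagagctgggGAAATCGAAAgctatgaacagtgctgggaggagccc
The match begins 35 bases before the start of Ifi203 and 36 bases before that of Mndal. Over the 250 bases before these starts, the promoters were identical at 233 of 249 aligned positions (93.6%), with a longest identical run of 96 bases. The other RefSeq start of Ifi203 had no match, and the other start of Mndal had one on the reverse strand.

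An ISRE core was present in 3.44% of all 32851 RefSeq windows, which run from 250 bases before to 50 bases after a start. In the p200 family it was present in 9 of the 12 genes with a window. Of these, 7 genes, Ifi203 and Mndal among them, held the same 10 bases. A gene was counted if any of its windows held a match, whereas the share of 3.44% counts single windows. The windows of Cgas, Tbk1, Ikbke, Ddx41 and Enpp1 held no match. Sting1, Zbp1 and Ifi204 were not among the genes whose windows were used. A match is a run of letters and says nothing by itself of binding in these cells.

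Cgas, which encodes the cytosolic DNA sensor and cGAMP synthase (GRCm39 chromosome 9, 78337808 to 78350519), averaged least in PBS. It had 36.5, 16.1 and 30.2 CPM in replicates 1, 2 and 3 of Ox-mtDNA, 27.3, 25.2 and 27.6 CPM in the mtDNA replicates, and 18.2, 15.2 and 4.4 CPM in the PBS replicates. All 3 mtDNA libraries were above all PBS libraries, Ox-mtDNA replicate 2 lay within the PBS range, and the lowest value was that of PBS replicate 3. The group means were 27.6 ± 10.4 CPM after Ox-mtDNA, 26.7 ± 1.28 after mtDNA and 12.6 ± 7.25 in PBS (SD, n = 3 each).

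Against PBS, Cgas had a log2 fold change of 1.13 after Ox-mtDNA (SE 0.527, 95% interval -0.08 to 2.34, edgeR adjusted p = 0.541). After mtDNA the log2 fold change was 1.08 (SE 0.526, 95% interval -0.12 to 2.29, edgeR adjusted p = 1). The differences from PBS in replicates 1, 2 and 3 were all positive, 1, 0.08 and 2.75 log2 units after Ox-mtDNA and 0.58, 0.73 and 2.62 after mtDNA. Both comparisons use the same PBS libraries, and without PBS replicate 3 the log2 fold changes were 0.71 and 0.67. Ox-mtDNA and mtDNA differed by 0.05 log2 units, with a 95% interval of -1.14 to 1.24. An antisense gene without a symbol shares 202 of the 4082 exon bases of Cgas and reached at most 1.69 CPM.

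Sting1, the cGAMP receptor and adaptor of the pathway (GRCm39 chromosome 18, 35866732 to 35873607), was highest in PBS replicate 3. It had 185, 84.3 and 183 CPM in replicates 1, 2 and 3 of Ox-mtDNA, 155, 164 and 149 CPM in the mtDNA replicates, and 196, 183 and 379 CPM in the PBS replicates. All 3 mtDNA libraries were below all PBS libraries, while Ox-mtDNA replicates 1 and 3 reached the lower end of the PBS range. PBS replicate 3 also had the highest sum of monocyte and macrophage markers, 2270 CPM, and Ox-mtDNA replicate 2, the library with least Sting1, the lowest, 684 CPM. Most of the sum in PBS replicate 3 came from Ccr2 and Ly6c2, at 1490 and 498 CPM, while Lyz2 and C1qb were highest in Ox-mtDNA replicate 2, at 154 and 3.39 CPM. The part of these markers in the result was not tested.

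Sting1 had a log2 fold change of -0.75 in Ox-mtDNA against PBS (SE 0.396, 95% interval -1.65 to 0.16, edgeR adjusted p = 0.611). In mtDNA against PBS it was -0.69 (SE 0.396, 95% interval -1.6 to 0.21, edgeR adjusted p = 1). Each of the 6 differences at a replicate number was negative, from -0.09 to -1.12 after Ox-mtDNA and from -0.16 to -1.35 after mtDNA. Without PBS replicate 3, the log2 fold changes were -0.35 after Ox-mtDNA and -0.29 after mtDNA. Between Ox-mtDNA and mtDNA the difference was -0.05 log2 units, with a 95% interval of -0.95 to 0.85. In CPM, the ratio of Cgas to Sting1 was 0.165 to 0.198 in the Ox-mtDNA libraries, 0.154 to 0.185 in the mtDNA libraries and 0.0116 to 0.0927 in the PBS libraries, so that the PBS ratios lay below all others.

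Tbk1 encodes the kinase that STING recruits to phosphorylate IRF3 (GRCm39 chromosome 10, 121382360 to 121422692). It had 52, 181 and 52.1 CPM in replicates 1, 2 and 3 of Ox-mtDNA, 109, 111 and 73.4 CPM in the mtDNA replicates, and 96.1, 96.8 and 114 CPM in the PBS replicates. Ox-mtDNA replicates 1 and 3 were the lowest of all libraries and Ox-mtDNA replicate 2 was the highest, so the Ox-mtDNA libraries enclosed both other groups. Ox-mtDNA replicate 2 was also the library with the lowest pDC marker sum, whose part in this value was not tested.

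Tbk1 had log2 fold changes of -0.11 in Ox-mtDNA against PBS (95% interval -1.24 to 1.02), -0.06 in mtDNA against PBS (95% interval -1.2 to 1.07) and -0.04 in Ox-mtDNA against mtDNA (95% interval -1.18 to 1.09). Without Ox-mtDNA replicate 2, the log2 fold change was -0.99 against PBS (edgeR adjusted p = 0.409) and -0.92 against mtDNA (edgeR adjusted p = 0.999). The mean of the Ox-mtDNA group, 94.9 ± 74.3 CPM (SD, n = 3), therefore describes none of its libraries.

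Ikbke encodes IKKε, the kinase related to TBK1 (GRCm39 chromosome 1, 131182334 to 131207344). It had 24.3, 12 and 11.6 CPM in replicates 1, 2 and 3 of Ox-mtDNA, 22.8, 19.7 and 7.39 CPM in the mtDNA replicates, and 20, 20.1 and 8.92 CPM in the PBS replicates. The replicate 3 library was the lowest of each group, and all 3 groups overlapped. The log2 fold change was -0.03 in Ox-mtDNA against PBS, 0.03 in mtDNA against PBS and -0.06 in Ox-mtDNA against mtDNA, with 95% intervals of -1.26 to 1.2, -1.2 to 1.26 and -1.29 to 1.17. The CPM ratio of Tbk1 to Ikbke was 15.1 in Ox-mtDNA replicate 2 and 2.14 in Ox-mtDNA replicate 1, with the other 7 libraries between these values.

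Zbp1 encodes a receptor of Z-form nucleic acids that engages RIPK3 and is itself induced by interferon (GRCm39 chromosome 2, 173048405 to 173060716). It had 2.16, 8.25 and 2.79 CPM in replicates 1, 2 and 3 of Ox-mtDNA, 17.3, 47.4 and 2.61 CPM in the mtDNA replicates, and 7.81, 12.6 and 4.67 CPM in the PBS replicates. It was higher in mtDNA replicates 1 and 2 than in any other library, whereas mtDNA replicate 3 was among the lowest, so the groups overlapped.

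Against mtDNA, Ox-mtDNA had a log2 fold change of -2.35 for Zbp1 (SE 0.992, 95% interval -4.63 to -0.07), which did not pass (edgeR unadjusted p = 0.045, adjusted p = 1). The differences in replicates 1, 2 and 3 were -2.95, -2.51 and 0.09 log2 units. Without mtDNA replicate 3 the log2 fold change was -2.86 (edgeR adjusted p = 0.429), and without mtDNA replicate 2 it was -1.19. Against PBS, the log2 fold change was -0.92 after Ox-mtDNA (95% interval -3.12 to 1.27) and 1.43 after mtDNA (95% interval -0.78 to 3.64). Without mtDNA replicate 2, the log2 fold change of mtDNA against PBS was 0.25.

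**Figure D2:**
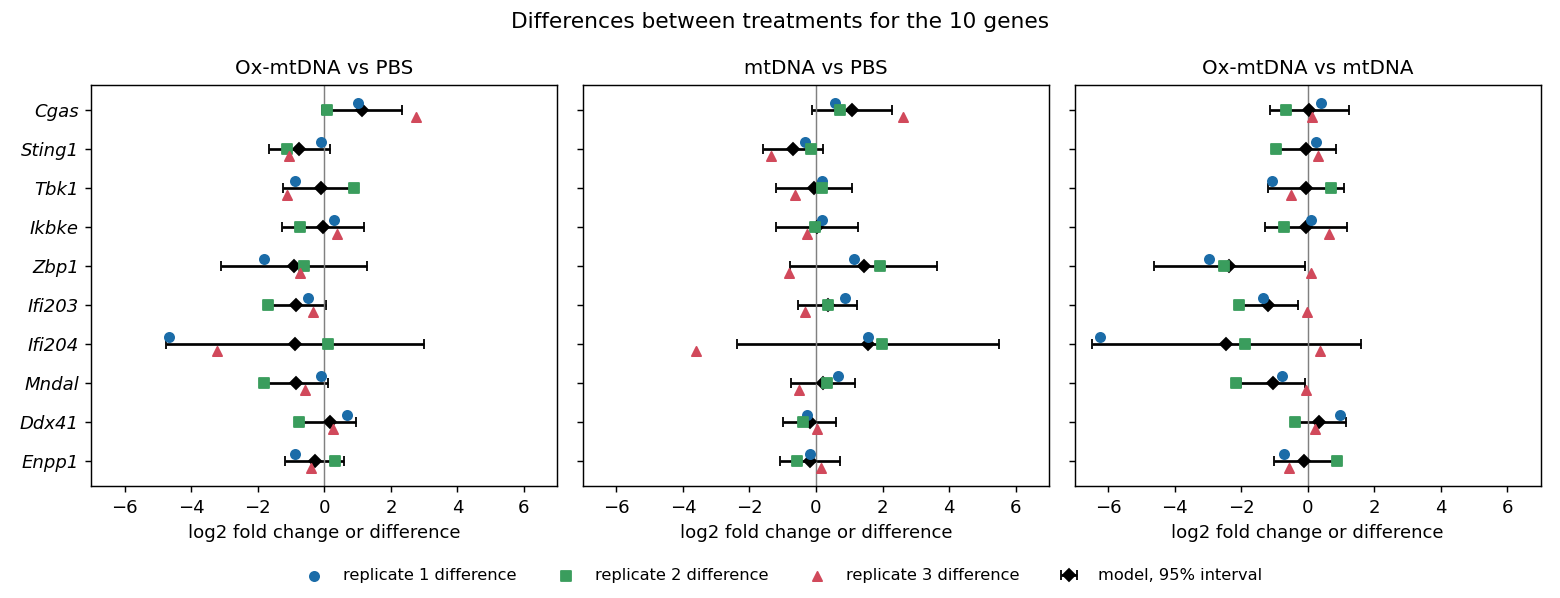
Log2 fold changes of the 10 genes in 3 comparisons: black diamonds are the edgeR model with its 95% interval, coloured markers the log2 CPM difference between libraries of the same replicate number, and the vertical line is at 0. Most intervals cross 0; in Ox-mtDNA against mtDNA, those of Zbp1, Ifi203 and Mndal end at -0.07, -0.29 and -0.09, while their replicate 3 differences lie at 0.09, -0.02 and -0.06.

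Ifi203 and Mndal belong to the p200 family, nuclear and cytosolic proteins with DNA-binding HIN domains that are induced by interferon. Ifi203 (GRCm39 chromosome 1, 173747973 to 173770238) had 153, 114 and 206 CPM in replicates 1, 2 and 3 of Ox-mtDNA, 390, 478 and 209 CPM in the mtDNA replicates, and 215, 370 and 261 CPM in the PBS replicates. Mndal (GRCm39 chromosome 1, 173684786 to 173707871) had 170, 103 and 177 CPM in the Ox-mtDNA replicates, 288, 458 and 185 CPM in the mtDNA replicates, and 180, 362 and 263 CPM in the PBS replicates. For both genes, each Ox-mtDNA library was below every mtDNA and every PBS library, though mtDNA replicate 3 and PBS replicate 1 lay close above. The lowest value of both came from Ox-mtDNA replicate 2.

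In Ox-mtDNA against mtDNA, Ifi203 had a log2 fold change of -1.19 (SE 0.39, 95% interval -2.08 to -0.29, edgeR unadjusted p = 0.0154, adjusted p = 1). Mndal had -1.05 (SE 0.42, 95% interval -2.01 to -0.09, edgeR unadjusted p = 0.0358, adjusted p = 1). The replicate 1, 2 and 3 differences were -1.35, -2.06 and -0.02 log2 units for Ifi203 and -0.76, -2.15 and -0.06 for Mndal. Without mtDNA replicate 3 the log2 fold changes were -1.41 and -1.27, and without mtDNA replicate 2 they were -0.93 and -0.66.

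Ox-mtDNA and PBS differed by -0.84 log2 units for Ifi203 (SE 0.387, 95% interval -1.73 to 0.05, edgeR adjusted p = 0.539). For Mndal the difference was also -0.84 (SE 0.418, 95% interval -1.8 to 0.12, edgeR adjusted p = 0.572). Between mtDNA and PBS, the log2 fold change was 0.35 for Ifi203 (95% interval -0.53 to 1.23) and 0.21 for Mndal (95% interval -0.74 to 1.16). The CPM ratio of Ifi203 to Mndal stayed between 0.901 and 1.35 over the 9 libraries. Of the 50-base windows of the annotated transcripts, 12.4% of those of Ifi203 and 19.6% of those of Mndal also occur in other genes, most often in family members and an Ifi203 pseudogene, and reads that aligned to several places were not counted.

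Ifi204 encodes the mouse p200 protein most often compared with human IFI16, a DNA sensor that acts with STING (GRCm39 chromosome 1, 173574859 to 173594485). It had 0.675, 28.9 and 0.877 CPM in replicates 1, 2 and 3 of Ox-mtDNA, 58.9, 106 and 0.652 CPM in the mtDNA replicates, and 19.9, 27 and 9.03 CPM in the PBS replicates. These values rest on 10, 547 and 17 counts after Ox-mtDNA, 1104, 1927 and 12 counts after mtDNA and 427, 524 and 238 counts in PBS. Ox-mtDNA replicates 1 and 3 and mtDNA replicate 3 were below 1 CPM, the PBS libraries were within a 3-fold range, and mtDNA replicates 1 and 2 were highest.

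Ifi204 had log2 fold changes of -0.87 in Ox-mtDNA against PBS (95% interval -4.75 to 3), 1.57 in mtDNA against PBS (95% interval -2.36 to 5.5) and -2.44 in Ox-mtDNA against mtDNA (95% interval -6.49 to 1.61). Without Ox-mtDNA replicate 2 it was -4.59 against PBS (edgeR adjusted p = 0.413) and -6.16 against mtDNA (edgeR adjusted p = 0.999). Without mtDNA replicate 3 it was -3.02 in Ox-mtDNA against mtDNA (edgeR adjusted p = 0.715). Of the 3512 windows of 50 bases in the transcripts of Ifi204, 703 also occur in other genes, Ifi211 foremost.

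Ddx41 encodes a DEAD-box helicase reported to bind cytosolic DNA and signal through STING (GRCm39 chromosome 13, 55678223 to 55684471). It had 122, 48.3 and 97.7 CPM in replicates 1, 2 and 3 of Ox-mtDNA, 62.3, 62.9 and 84.7 CPM in the mtDNA replicates, and 75.6, 82.4 and 82.1 CPM in the PBS replicates. The Ox-mtDNA libraries were the highest and the lowest of all, enclosing the other groups. Its log2 fold changes were 0.16 in Ox-mtDNA against PBS (95% interval -0.64 to 0.96), -0.19 in mtDNA against PBS (95% interval -0.99 to 0.6) and 0.35 in Ox-mtDNA against mtDNA (95% interval -0.44 to 1.15). The antisense gene Gm46416, at up to 21.3 CPM, shares 306 of the 2205 exon bases of Ddx41 (13.9%), and reads there cannot be told apart because counting did not use strand.

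Enpp1 encodes the membrane enzyme that hydrolyses cGAMP outside the cell (GRCm39 chromosome 10, 24513812 to 24588056). It had 3.78, 6.66 and 4.08 CPM in replicates 1, 2 and 3 of Ox-mtDNA, 6.19, 3.58 and 6.04 CPM in the mtDNA replicates, and 7.02, 5.36 and 5.43 CPM in the PBS replicates. The groups overlapped, and the range over all libraries, 1.96-fold, was the narrowest of the 10 genes. Enpp1 had log2 fold changes of -0.29 in Ox-mtDNA against PBS (95% interval -1.19 to 0.6), -0.17 in mtDNA against PBS (95% interval -1.07 to 0.72) and -0.12 in Ox-mtDNA against mtDNA (95% interval -1.02 to 0.78).

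Counted over the 10 genes, 0 passed the adjusted threshold in each comparison with edgeR, against 0% of all tested genes. At an unadjusted p under 0.05 there were 0 of 10 in Ox-mtDNA against PBS, 0 of 10 in mtDNA against PBS and 3 of 10 in Ox-mtDNA against mtDNA, beside the 9.81%, 2.62% and 2.4% of all genes. The 3 were lower after Ox-mtDNA, as were 1.48% of all genes. With the replicate number as a block in edgeR the counts were 2, 1 and 3 of 10, beside 19.1%, 5.68% and 6.81% of all genes. With limma-voom, sample quality weights and the block they were 1, 7 and 6 of 10, beside 21.4%, 25.7% and 15.7%, and 3 of 10 (Cgas, Zbp1 and Ifi204, all higher) passed the adjusted threshold in mtDNA against PBS, as did 7.62% of all genes. The groups did not overlap for 2 of 10 genes in Ox-mtDNA against PBS (Ifi203 and Mndal, both lower), where 15.5% of all genes did not overlap and 8.08% were lower. They did not overlap for 2 of 10 in mtDNA against PBS (Cgas higher, Sting1 lower), where the share of all genes was 10.5%, with 5.58% higher and 4.96% lower. In Ox-mtDNA against mtDNA the same was found for 2 of 10 genes (Ifi203 and Mndal, both lower), against 4.83% of all genes, with 2.79% lower. Negative log2 fold changes were found for 8, 4 and 8 of 10 genes in Ox-mtDNA against PBS, mtDNA against PBS and Ox-mtDNA against mtDNA, and for 46.2%, 48% and 45.8% of all genes. In Ox-mtDNA against PBS, 1 of 10 genes was higher and 4 were lower at all 3 replicate numbers, beside 20.2% and 17.6% of all genes. For mtDNA against PBS the numbers were 1 and 1, beside 20.8% and 19.4%. The median log2 fold change of the 10 genes was -0.52, 0.12 and -0.09 in these 3 comparisons, and that of all tested genes was 0.06, 0.02 and 0.04. The comparisons share libraries, so these counts are not independent.

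With replicate 3, which stood apart, left out of all groups, the edgeR log2 fold changes of Cgas and Sting1 against PBS were 0.66 and -0.49 after Ox-mtDNA and 0.65 and -0.25 after mtDNA. In Ox-mtDNA against mtDNA they were -2.62 for Zbp1 (adjusted p = 0.23), -1.69 for Ifi203 (adjusted p = 0.161), -1.44 for Mndal (adjusted p = 0.246) and -2.47 for Ifi204 (adjusted p = 0.457). With all 3 replicates but without Ox-mtDNA replicate 2, the library with the lowest pDC marker sum, the differences of Ox-mtDNA from PBS were -0.67 for Ifi203 and -0.65 for Mndal. The part of that marker sum in these values was not tested.

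The p200 family list, which includes Ifi203, Ifi204 and Mndal, had negative log2 fold changes in both Ox-mtDNA comparisons, though no gene passed and the libraries of some, such as Aim2, overlapped. Ifi202b, also on the list, was not tested. Of 12 tested genes, 12 had a negative log2 fold change in Ox-mtDNA against PBS, where 46.2% of all genes did, with a median of -0.9. In Ox-mtDNA against mtDNA 12 of 12 were negative, beside 45.8% of all genes, with a median of -1.51. For mtDNA against PBS the number was 1 of 12, beside 48% of all genes, with a median of 0.37. These 3 counts were the same with DESeq2 size factors and with upper quartile scaling. In mtDNA against PBS, 6 of 12 were negative with limma-voom (median 0.04), 3 of 12 with the replicate block (median 0.21) and 5 of 12 without mtDNA replicate 2 (median 0.09), while without mtDNA replicate 3 the median was 0.76. Over 19 alternatives the median was -2.17 to -0.65 in Ox-mtDNA against PBS and -2.31 to -1.24 in Ox-mtDNA against mtDNA, the lowest of both without Ox-mtDNA replicate 2. Aim2 turned positive against PBS without PBS replicate 3 and against mtDNA without mtDNA replicate 3. By edgeR 0 of 12 passed the adjusted threshold in any comparison, and 2, 0 and 6 of 12 had an unadjusted p under 0.05 in Ox-mtDNA against PBS, mtDNA against PBS and Ox-mtDNA against mtDNA, beside 9.81%, 2.62% and 2.4% of all genes.

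Ifi209, another family member, had 62.6, 88.3 and 55.5 CPM in replicates 1, 2 and 3 of Ox-mtDNA, 263, 319 and 60.2 CPM in the mtDNA replicates, and 166, 213 and 155 CPM in the PBS replicates. All Ox-mtDNA libraries were below all PBS libraries, and mtDNA replicate 3 lay within the range of the Ox-mtDNA libraries. Its log2 fold change was -1.37 in Ox-mtDNA against PBS and -1.64 in Ox-mtDNA against mtDNA (edgeR adjusted p = 0.482 and adjusted p = 1). Ifi206 had -2.24 and -2.63 in the same comparisons (edgeR adjusted p = 0.489 and adjusted p = 1), and its levels were 0.671 to 3.54 CPM after Ox-mtDNA, 1.52 to 16.5 CPM after mtDNA and 5.88 to 9.68 CPM in PBS. Aim2, the inflammasome sensor of cytosolic DNA, differed little among libraries, at 54.2 to 73.8 CPM after Ox-mtDNA, 63.1 to 88.5 CPM after mtDNA and 51.9 to 84.5 CPM in PBS. Its log2 fold changes were -0.11 in Ox-mtDNA against PBS (95% interval -0.75 to 0.53) and -0.21 in Ox-mtDNA against mtDNA (95% interval -0.85 to 0.43).

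**Figure D3:**
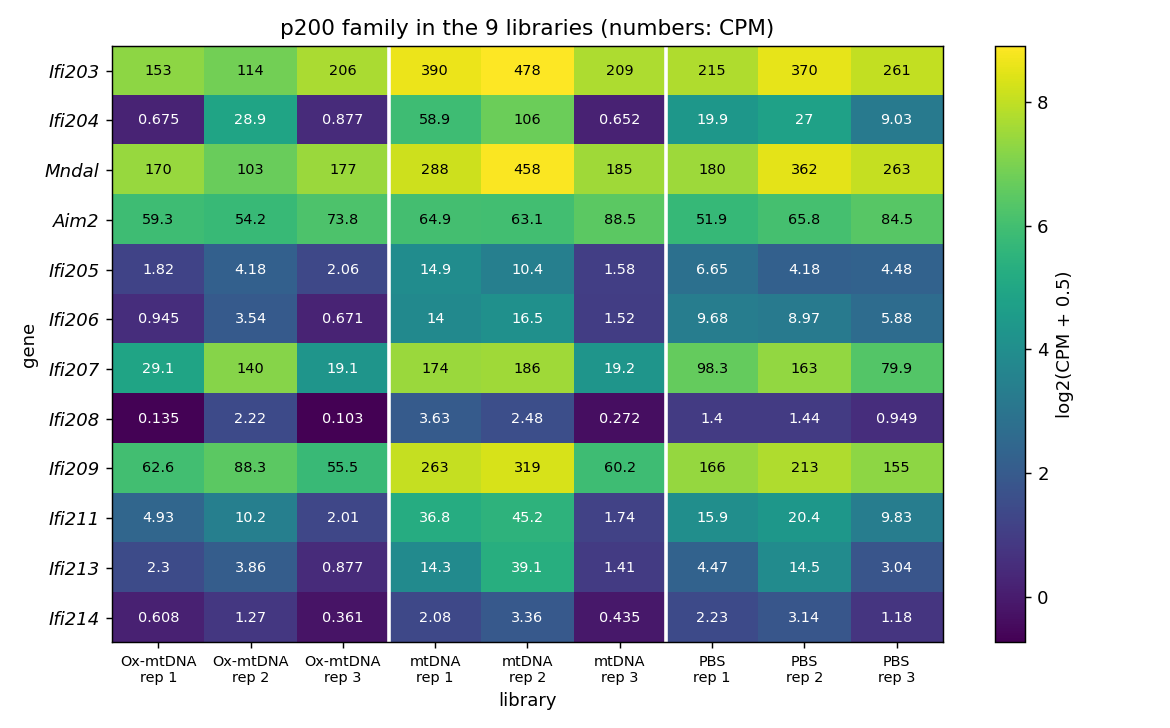
CPM of the 12 tested p200 family genes (rows) in the 9 libraries (columns, grouped as Ox-mtDNA, mtDNA and PBS), printed in each cell and coloured by log2(CPM + 0.5). In the mtDNA group, replicates 1 and 2 have the highest values of most rows while replicate 3 lies nearer to the Ox-mtDNA columns, as for Ifi209 at 263, 319 and 60.2 CPM; the Aim2 row is nearly even.

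Beyond these 10 genes, 117 partners of the pathway were looked up, and 112 were tested. By edgeR, 0 of 112 passed the adjusted threshold in each comparison. At an unadjusted p under 0.05, 2 were higher and 7 lower in Ox-mtDNA against PBS, 4 higher and 1 lower in mtDNA against PBS, and 0 higher and 11 lower in Ox-mtDNA against mtDNA. Over all genes, 9.81%, 2.62% and 2.4% had such a p in these 3 comparisons, and 9 of 112 partners in Ox-mtDNA against PBS is no larger a share than that of all genes. The medians of their log2 fold changes were -0.07, 0.06 and -0.12.

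Of 14 genes of DNA clearance and cGAS regulation, 10 had negative log2 fold changes in Ox-mtDNA against PBS, with a median of -0.18. In mtDNA against PBS 11 of 14 did (median -0.23), and in Ox-mtDNA against mtDNA 3 of 14 did (median 0.07). Over all genes, 46.2%, 48% and 45.8% were negative in these 3 comparisons. Trex1, the exonuclease that degrades cytosolic DNA, had 71.4, 74.5 and 56.6 CPM in replicates 1, 2 and 3 of Ox-mtDNA, 149, 144 and 84.8 CPM in the mtDNA replicates, and 135, 156 and 173 CPM in the PBS replicates. The Ox-mtDNA libraries were below every other library. The log2 fold change was -1.19 in Ox-mtDNA against PBS (SE 0.287, edgeR adjusted p = 0.472) and -0.9 in Ox-mtDNA against mtDNA (SE 0.286, edgeR adjusted p = 1), and it was negative at each replicate number in both. DESeq2 called Trex1 in Ox-mtDNA against PBS.

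Of 7 tested genes listed under cGAMP transport and hydrolysis, Lrrc8d, a subunit of volume-regulated anion channels, had the largest log2 fold changes against PBS. It had 69.8, 217 and 231 CPM in replicates 1, 2 and 3 of Ox-mtDNA, 86.4, 93.5 and 310 CPM in the mtDNA replicates, and 66.8, 57.6 and 34.1 CPM in the PBS replicates. Every library treated with DNA was above every PBS library, by little in replicate 1. The log2 fold change was 1.71 after Ox-mtDNA (edgeR adjusted p = 0.473) and 1.63 after mtDNA (edgeR adjusted p = 1). It was 0.08 in Ox-mtDNA against mtDNA, where Smpdl3a, a nucleotide-hydrolysing enzyme, had 0.72. Against PBS, the related genes Lrrc8a and Lrrc8c had -0.4 and 0.05 after Ox-mtDNA and -0.29 and 0.14 after mtDNA. Passage of cGAMP was not measured.

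In STING trafficking and turnover, 25 of 25 genes were tested, and their medians were 0.03, -0.03 and 0.12 in Ox-mtDNA against PBS, mtDNA against PBS and Ox-mtDNA against mtDNA. Usp18, an interferon-induced protease that restrains interferon signalling, was at 15.4 to 33.9 CPM after Ox-mtDNA, 16.4 to 170 CPM after mtDNA and 33.4 to 70.5 CPM in PBS. Trim32, a ubiquitin ligase of STING, had a log2 fold change of -0.75 in mtDNA against PBS (edgeR adjusted p = 1). Among 16 adaptors and substrates of TBK1 and IKKε, the medians were 0.07, 0.13 and -0.01. Irf7, the interferon regulatory factor that pDCs hold at high levels, was at 43.5 to 76.2 CPM after Ox-mtDNA, at 303, 437 and 31.9 CPM in mtDNA replicates 1, 2 and 3, and at 80.8 to 310 CPM in PBS. The Ox-mtDNA libraries and mtDNA replicate 3 were below all PBS libraries.

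Among 6 partners of ZBP1 in cell death, Fadd, the adaptor of caspase-8, was at 6.51 to 8.64 CPM after Ox-mtDNA, 11.2 to 12.1 CPM after mtDNA and 13.4 to 16 CPM in PBS. The 3 groups did not overlap. The log2 fold change was -0.88 in Ox-mtDNA against PBS (SE 0.271, edgeR adjusted p = 0.472), and DESeq2 called it. In the list of 22 other nucleic acid sensors, Ifih1, the RNA sensor MDA5, had a log2 fold change of -1.79 in Ox-mtDNA against mtDNA (edgeR adjusted p = 1), with -2.64, -1.61 and -0.36 in replicates 1, 2 and 3.

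Of the 14 genes of interferon output, 14 had negative log2 fold changes in Ox-mtDNA against mtDNA, with a median of -0.99, and 9 of 14 did in Ox-mtDNA against PBS, with a median of -0.56. After mtDNA, 12 of 14 were positive against PBS, with a median of 0.79. With DESeq2 size factors and with upper quartile scaling these counts were the same, except that Ifit2 turned positive in Ox-mtDNA against PBS, leaving 8 of 14 negative. With limma-voom, 10 of 14 were negative in Ox-mtDNA against PBS, 10 of 14 positive in mtDNA against PBS and 13 of 14 negative in Ox-mtDNA against mtDNA. Over 19 alternatives the medians were -0.82 to -0.28, 0.56 to 1.18 and -1.63 to -0.82 in Ox-mtDNA against PBS, mtDNA against PBS and Ox-mtDNA against mtDNA. The value of -0.28 came without Ox-mtDNA replicate 1, and in 6 alternatives Ifnb1 turned positive in Ox-mtDNA against mtDNA. Ifnb1, interferon-β, had 106, 5 and 682 counts in Ox-mtDNA replicates 1, 2 and 3, 6, 0 and 900 counts in the mtDNA replicates and 1, 0 and 0 counts in the PBS replicates. It was thus nearly absent from PBS and highest in replicate 3 of both DNA treatments.

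Cxcl10, an interferon-induced chemokine, had 19, 25 and 37.1 CPM in the Ox-mtDNA replicates, 66.9, 22.3 and 69.6 CPM in the mtDNA replicates, and 18.5, 4.07 and 4.37 CPM in the PBS replicates. Ifnb1 and Cxcl10 were therefore high in mtDNA replicate 3, where Irf7, Zbp1, Ifi204 and Ifi209 were low.

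**Figure D4:**
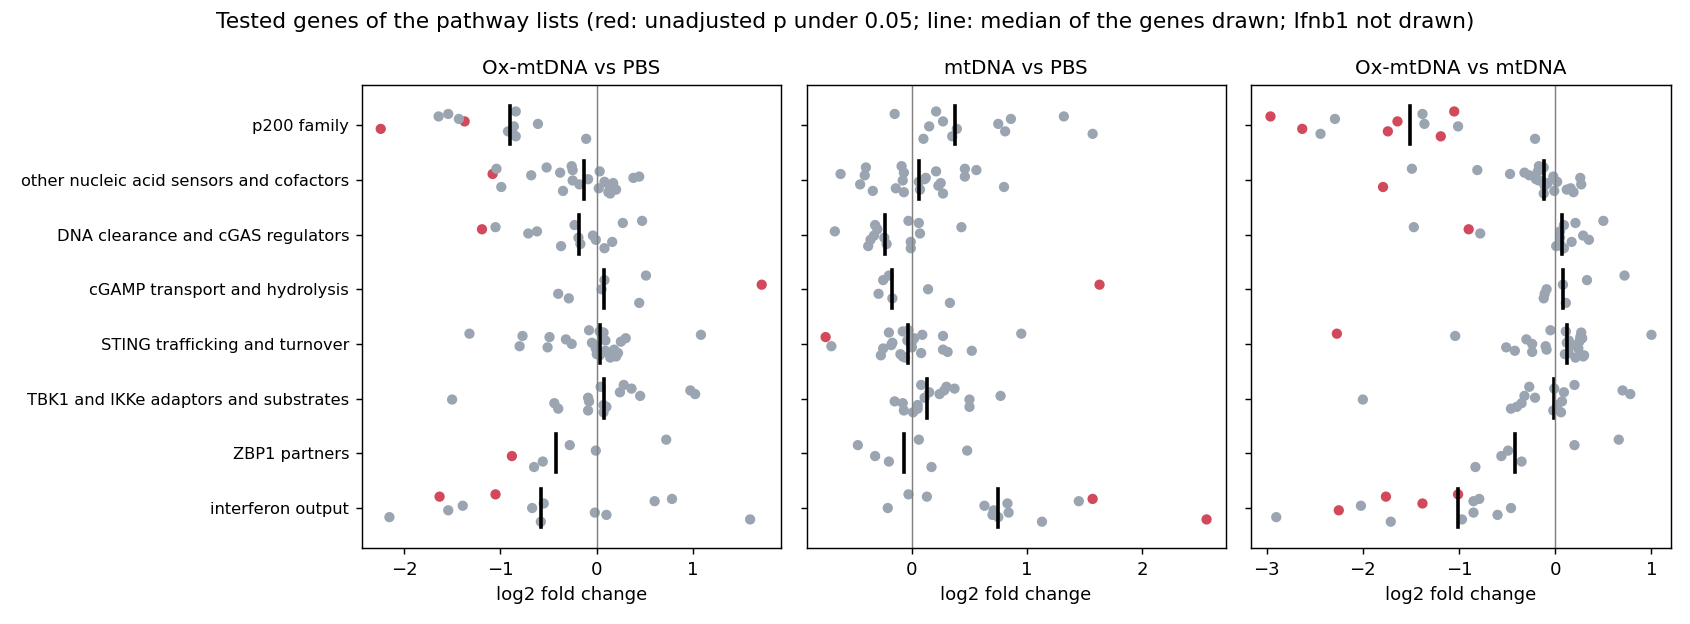
Log2 fold changes of the tested genes of 8 pathway lists (rows) in 3 comparisons, a dot per gene (red where the unadjusted edgeR p is under 0.05) and a black line at the median of the genes drawn. The p200 row lies left of 0 in both Ox-mtDNA comparisons and the interferon row left of 0 in Ox-mtDNA against mtDNA, while the STING trafficking row is centred near 0, with medians of 0.03, -0.03 and 0.12; Ifnb1, nearly absent from PBS, is not drawn.

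Genes with the most similar pattern were sought by Pearson correlation of log2 CPM over the 9 libraries, after subtracting the mean of each replicate number. For Zbp1 they were Phf11a (0.994), Gbp7 (0.993) and Olfr432 (0.991), and for Ifi204 they were Zfp704 (0.982), Rtp4 (0.981) and Gm43668 (0.98). For Cgas they were Gm37570 (0.991), Cntrob (0.99) and Gm15889 (0.989), and for Sting1 Pagr1a (0.995), Gm42742 (0.995) and Gm20463 (0.989). For Enpp1 they were Lef1 (0.994), Rab11fip1 (0.978) and Tmem170 (0.958). These are the top 3 of 17555 genes over 9 points that share libraries and depth, given as a description. Subtracting the means leaves fewer free values than 9. Without it the first genes were Fnbp4 for Cgas (0.978), Lsm7 for Sting1 (0.982), Serpina3g for Ifi204 (0.988) and Dmd for Enpp1 (0.909). Phf11a stayed first for Zbp1 (0.993).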

How the data were processed

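Raw counts per gene were deposited, not normalized. The submitters' processing notes name fastp 0.23.4, STAR 2.7.11b, featureCounts 2.0.1 and GRCm39. Per the file headers, fragments were counted over exons of GENCODE M34 without strand, a fragment over several genes was counted for each, and multi-mapping fragments were not counted.

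All 9 count columns were used, and groups were taken from the sample titles. In R 4.3.3, edgeR 4.0.16 kept 17555 genes (filterByExpr, minimum count 10). One robust quasi-likelihood model with a coefficient per group and TMM factors (6 residual degrees of freedom) gave 3 F-tests, adjusted by Benjamini-Hochberg over all tested genes at 0.05. CPM values are counts scaled by the TMM-adjusted library size. Only the edgeR model without a block was tested on simulated counts, which had the same relative spread for every gene and no replicate effect. That test does not cover the shift of replicate 3 seen here. Same-numbered libraries deviated together from their group means (correlations 0.487 to 0.897, all over 0.1). The numbers were therefore used as a block in alternatives, as read from the data and not from the labels. The edgeR intervals and p-values given for single genes come from the model without the block. The shift of replicate 3 is thus part of their spread. Libraries of different numbers were not compared in this way, and replicate 3 stood apart in every group. The correlations thus cannot show that replicates 1 and 2 pair by number. With the replicate number as a block, 1 gene passed in Ox-mtDNA against PBS.

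Gene symbols came from GENCODE M21 names, and promoters from RefSeq windows of GRCm38.p6, which hold 7 of the 10 genes. Partners named are up to 3 per list and comparison with the smallest unadjusted p; of these the text gives those that show a list's range, and Cxcl10, Irf7, Aim2 and Ifnb1 were described further after their values were seen. Some results that this rule covers are not reported here. The 10 genes and all lists were chosen with earlier results of these data known. Alternatives were other normalizations, filters and tools (DESeq2 1.42.0, limma 3.58.1 voom), fewer libraries and each library left out. Counting error bears most on genes with few counts, such as Ifi204 with 10, 17 and 12 counts in 3 libraries.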

Additional observations from a re-analysis of the deposited data

How the results depend on the processing

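Over 19 alternatives, 178, 173 and 171 of 190 values of the 10 genes kept their direction and their side of the threshold in Ox-mtDNA against PBS, mtDNA against PBS and Ox-mtDNA against mtDNA. The exceptions in direction were log2 fold changes between -0.17 and 0.21 in the edgeR test of all libraries, apart from Ifi204 under limma-voom, and the cause was not tested.

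The count of genes passing in Ox-mtDNA against PBS, 0 in the edgeR test, was 370 with DESeq2, 1 with the replicate block, 25 with replicates 1 and 2 only and 423 with limma-voom, sample quality weights and the replicate block. In mtDNA against PBS it was 14 with DESeq2 and 1337 with limma-voom, weights and block, and in Ox-mtDNA against mtDNA it was 1 and 14. Passing partners were 3 (DESeq2: Ifnb1, Fadd and Trex1) and 1 (weights and block: Trex1) in Ox-mtDNA against PBS, and 1 (Ifnb1) and 18 in mtDNA against PBS. The 10 genes gave 3 calls, all in mtDNA against PBS with limma-voom, weights and block: Cgas at 0.75 (adjusted p = 0.0397), Zbp1 at 1.46 (adjusted p = 0.0157) and Ifi204 at 1.64 (adjusted p = 0.028). These weights were 0.157 for Ox-mtDNA replicate 2 and 0.241 for PBS replicate 3. They were 0.567 for mtDNA replicate 3, 3.16 and 3.9 for mtDNA replicates 1 and 2, and 3.28 and 1.98 for PBS replicates 1 and 2. In mtDNA against PBS, the replicate 3 differences of Zbp1 and Ifi204, -0.82 and -3.6, went against these calls, while that of Cgas was 2.62. The block changed no call of the 10 genes by edgeR.

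In Ox-mtDNA against PBS, Ikbke turned to 0.03 with upper quartile factors, 0 with at least 1 CPM in 3 libraries, 0.01 with the replicate block and 0.22 with weights and block, and Tbk1 to 0.28 with replicates 1 and 2 only. In mtDNA against PBS, Ikbke turned to -0.01 with limma-voom, -0.01 with no filter and -0.02 with the block, Ifi204 to -0.04 with limma-voom, and Tbk1 to 0.19 with replicates 1 and 2 only and 0.14 with weights and block. In Ox-mtDNA against mtDNA, Cgas turned to -0.05 with limma-voom, Ikbke to 0.03 with the block and 0.14 with weights and block, and with replicates 1 and 2 only Tbk1 turned to 0.09 and Enpp1 to 0.11.

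With each library left out, Tbk1, Ikbke and Ddx41 ranged from -0.99 to 0.14, -0.47 to 0.13 and -0.14 to 0.45 in Ox-mtDNA against PBS. In mtDNA against PBS, Tbk1, Ikbke, Mndal and Enpp1 ranged from -0.17 to 0.04, -0.27 to 0.34, -0.19 to 0.48 and -0.34 to 0.03. In Ox-mtDNA against mtDNA, Cgas, Sting1, Tbk1, Ikbke and Enpp1 ranged from -0.19 to 0.31, -0.25 to 0.23, -0.92 to 0.24, -0.47 to 0.23 and -0.43 to 0.02. The direction turned in Ox-mtDNA against PBS without Ox-mtDNA replicate 1 (Tbk1, Ddx41), 2 (Ikbke) or 3 (Tbk1, Ikbke) and without PBS replicate 1 or 2 (Ikbke). It turned in mtDNA against PBS without mtDNA replicate 1 (Ikbke), 2 (Ikbke, Mndal, Enpp1) or 3 (Tbk1) and without PBS replicate 1 (Mndal) or 3 (Tbk1, Ikbke). It turned in Ox-mtDNA against mtDNA without Ox-mtDNA replicate 1 (Cgas, Tbk1, Enpp1), 2 (Sting1, Ikbke) or 3 (Cgas, Tbk1, Ikbke) and without mtDNA replicate 1 (Tbk1, Ikbke, Enpp1), 2 (Tbk1, Ikbke) or 3 (Enpp1). Counts were few for Ifi204 and Zbp1 in some libraries and for Enpp1 in all.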
